A study of Mus musculus with 12 samples.

Results

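A set of 10 cytokine and inflammasome genes was followed in sorted bone marrow myeloid cells: Il1b, Il1rn, Il18, Il15, Il10, Il6, Tnf, Nlrp3, Casp1 and Pycard. They were chosen by symbol, with earlier results of these data known, and all 10 were found among the 56953 genes of the count and TPM tables. The 12 libraries came from 8-week-old female C57BL/6J mice, all of which carried the lineage tracer alleles Rank cre/+ and Rosa26.eYFP fl/+. In this model, Cre is expressed from the Rank locus in embryonic macrophages and not in adult hematopoietic stem or progenitor cells, so that eYFP marks cells of embryonic origin. The 4 groups were eYFP+ macrophages (labelled embryonic), eYFP- macrophages (labelled adult), Ly6Chi monocytes and Ly6Clo monocytes, with 3 libraries each and no treatment. Macrophages were F4/80hi cells positive for CD206 and VCAM1. An eYFP- cell is defined by the absence of the reporter, and whether a library comes from 1 mouse or from a pool is not stated, so p-values measure the spread between libraries, which may be partly technical.

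IL-1β and IL-18, encoded by Il1b and Il18, are cytokines made as inactive precursors. The inflammasome cuts them into their active forms: the sensor NLRP3 (Nlrp3) assembles with the adaptor ASC (Pycard) and activates the protease caspase-1 (Casp1). Il1rn encodes the IL-1 receptor antagonist, which occupies the receptor of IL-1β without signalling. TNF and IL-6 are inflammatory cytokines, IL-10 restrains macrophage activation, and IL-15 is presented on its receptor chain and supports natural killer and memory T cells. Transcript levels report the precursor or the machinery, not the secreted active cytokine.

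Libraries held 26390927 to 48618187 counts and between 16434 and 27634 detected genes, both lowest in Ly6Clo replicate 2. This library and eYFP+ replicate 1 stood apart by their GC-rich genes: in the decile of genes with the highest GC content (median 59.0% GC, 1393 genes), the median log2 TPM was lower than in the other libraries of the group by a value of -1.23 in Ly6Clo replicate 2 and -0.86 in eYFP+ replicate 1, against -0.24 to 0.71 in the other 10 libraries. Defining markers followed the labels. Vcam1 was at 8965 to 14369 TPM in macrophages and at 14.4 to 90.2 TPM in monocytes, and Ly6c2 was at 5809 to 6963 TPM in Ly6Chi and 32.4 to 77.5 TPM in Ly6Clo monocytes. A list of 12 neutrophil markers (granule genes such as Camp and Ngp among them) summed to 121 to 210 TPM in eYFP+ macrophages, 208 to 2554 in eYFP- macrophages, 15737 to 23800 in Ly6Chi and 6792 to 16142 in Ly6Clo monocytes. In bulk RNA, fewer cells of a type and less RNA per cell cannot be told apart.

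Promoter windows are shown for Il1b, Tnf and Il18, because the first pair moved together over the 12 libraries (Pearson r of log2(normalized counts + 1) 0.85) while Il18 ran opposite to both (-0.74 with Il1b and -0.86 with Tnf). These libraries share their group, so r is descriptive. RefSeq promoters (GRCm38.p6) matched 8 of the 10 genes; Il15 and Il10 had none. Each line below gives the 250 bases upstream of the annotated start, 5′ to 3′ on the strand of the gene, with matches to the motifs searched in capitals. The windows are chr2:129371140-129371389 (minus strand) for Il1b, chr17:35202008-35202257 (minus strand) for Tnf and chr9:50554450-50554699 (plus strand) for Il18.
Il1b: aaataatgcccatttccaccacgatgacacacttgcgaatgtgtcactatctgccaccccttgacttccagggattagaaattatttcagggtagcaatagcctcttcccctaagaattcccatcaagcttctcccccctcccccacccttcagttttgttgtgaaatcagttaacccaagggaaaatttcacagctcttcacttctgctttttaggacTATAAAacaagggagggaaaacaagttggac
Tnf: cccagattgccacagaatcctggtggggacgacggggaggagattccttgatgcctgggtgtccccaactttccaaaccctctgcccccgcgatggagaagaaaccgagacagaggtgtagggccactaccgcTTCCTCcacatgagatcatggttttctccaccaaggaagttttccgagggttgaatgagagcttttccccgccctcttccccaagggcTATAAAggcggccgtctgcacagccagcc
Il18: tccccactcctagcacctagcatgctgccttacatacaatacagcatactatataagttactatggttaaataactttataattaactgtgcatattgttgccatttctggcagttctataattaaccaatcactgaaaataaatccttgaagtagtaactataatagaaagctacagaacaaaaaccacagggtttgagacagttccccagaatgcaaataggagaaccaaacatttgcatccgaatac
The capitals TATAAA, searched on the strand of the gene alone, begin 31 bases upstream of the start in Il1b and 29 bases upstream in Tnf, and were not in the other 6 genes. This motif was in 7.59% of the 32851 promoters. The capitals TTCCTC in Tnf are GAGGAA, a PU.1 motif, on the other strand, 117 bases upstream, and this motif was in a window of 4 of the 8 genes and in 23.3% of promoters. The other motifs, searched on both strands, were AP-1 (TGANTCA, 2 of 8 genes, 6.75% of promoters), C/EBP (TTGCNNAA, 2 of 8, 9.56%), the NF-kappaB consensus (2 of 8, 5.001%) and GAS (TTCNNNGAA, 0 of 8, 7.02%). The 2 genes with the NF-kappaB consensus were Il6 and Nlrp3. Il1rn and Nlrp3 have more than 1 annotated start, and a match in any of their windows was counted. None of the motifs searched was in the Il18 window, which says only that these letters are not in these 250 bases.

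Il1b (ENSMUSG00000027398) was highest in Ly6Clo monocytes, at 170.4, 133.2 and 163.1 TPM in replicates 1 to 3. It was at 18.3, 39.4 and 26.7 TPM in Ly6Chi monocytes, at 14.4, 31.1 and 17.2 TPM in eYFP+ macrophages, and at 8.59, 21.8 and 13.3 TPM in eYFP- macrophages. The Ly6Clo libraries lay above all 9 others, whose groups overlapped one another. Il1b was 5.50-fold lower in Ly6Chi than in Ly6Clo monocytes (log2 fold change -2.46 ± 0.41 SE, DESeq2 adjusted p = 2.51e-07, edgeR 0.00466). Against the Ly6Clo group, eYFP+ macrophages had a log2 difference of -2.99 ± 0.41 (DESeq2 adjusted p = 1.35e-11) and eYFP- macrophages one of -3.57 ± 0.41 (4.28e-16). Against the Ly6Chi group, the difference was -0.53 ± 0.41 for eYFP+ macrophages, which was not called (DESeq2 adjusted p = 0.419), and -1.10 ± 0.41 for eYFP- macrophages (0.0312, edgeR 0.0477, but lost by DESeq2 without replicate 1 or 3 of the eYFP- or 2 or 3 of the Ly6Chi group, 0.0813 to 0.228). The neutrophil list summed higher in Ly6Chi replicates 1 and 3 than in any Ly6Clo library, while Ly6Chi replicate 2 lay within the Ly6Clo range. Of its 12 genes, 2 were called higher and 2 lower in Ly6Chi (3.66% and 4.97% of all tested genes). It summed higher in every monocyte library than in any macrophage library, and its part in the Il1b result was not tested. The dendritic cell list of 8 genes summed to 656 to 2850 TPM in Ly6Clo and 112 to 125 TPM in Ly6Chi monocytes, mostly from Cd209a, and its part in the Il1b result was not tested. A list of 13 immediate early and heat shock genes, which respond to handling of cells, summed to 1881 to 1981 TPM in Ly6Clo, 1366 to 1532 in Ly6Chi, 552 to 864 in eYFP- and 431 to 1021 in eYFP+ libraries, the same order of groups as Il1b among monocytes, and its part was not tested. Exons of Il1b overlap the antisense gene Il1bos in the GENCODE M21 annotation, and whether counting used strand is not stated.

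Il1rn (ENSMUSG00000026981), the receptor antagonist, was a monocyte transcript. It was at 28.2, 23.0 and 24.2 TPM in Ly6Chi monocytes and at 8.09, 20.6 and 22.4 TPM in Ly6Clo monocytes. It was at 1.18, 4.36 and 3.31 TPM in eYFP- macrophages and at 0.365, 1.22 and 1.22 TPM in eYFP+ macrophages. Every macrophage library lay below every monocyte library, and macrophages were 13.9-fold lower (log2 fold change -3.79 ± 0.39, DESeq2 adjusted p = 5.09e-21, edgeR 2.18e-05). Of 12 neutrophil markers, 9 were also called lower in macrophages and 0 higher (15% and 20.3% of all tested genes). Their part in this difference was not tested. Il1rn was the one gene of the 10 with an unadjusted p under 0.05 between the macrophage groups: eYFP+ minus eYFP- was -1.62 ± 0.56 (95% interval -2.71 to -0.53), which was not called after adjustment over all genes (DESeq2 adjusted p = 0.125, edgeR 0.361). The TPM of these groups overlapped at eYFP- replicate 1, while their normalized counts did not (19.6 to 57.2 against 61.2 to 187). Without that library the difference was past the threshold (DESeq2 adjusted p = 0.0363), as it was without Ly6Clo replicate 1 (0.0486) or Ly6Clo replicate 2 (0.0400). A fit with replicate number as a further factor also passed it (DESeq2 adjusted p = 0.0266), and whether that number pairs the samples is not stated. Neutrophil markers summed to 210, 132 and 121 TPM in eYFP+ replicates 1, 2 and 3, another order than that of Il1rn. In eYFP- replicates 1, 2 and 3 they summed to 208, 2554 and 735 TPM, the same order as Il1rn. Markers of eosinophils, basophils and mast cells (7 genes, Mcpt8 and Prg2 among them) summed to 261, 326 and 1338 TPM in these libraries and to 12.2 to 20.4 TPM in the eYFP+ libraries. Of 8 tested monocyte markers and 8 dendritic cell markers, 3 of each list were called lower and 0 higher in eYFP+ (1.88% and 0.153% of all tested genes). Their summed levels overlapped all the same (684 to 1125 against 684 to 785 TPM for monocyte markers in eYFP+ and eYFP-, 26.1 to 37.8 against 35.96 to 61.9 TPM for dendritic cell markers). The part of these lists in the Il1rn difference was not tested.

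The ratio of Il1b to Il1rn TPM (0.1 TPM added to each) ordered the group means in another way than either gene. It was 31.2, 23.7 and 13.1 in eYFP+ macrophages and 6.78, 4.91 and 3.93 in eYFP- macrophages. It was 0.649, 1.71 and 1.10 in Ly6Chi monocytes and 20.8, 6.44 and 7.24 in Ly6Clo monocytes. The Ly6Chi group was thus the one in which agonist and antagonist transcripts were near parity, and eYFP+ libraries lay above all eYFP- libraries without overlap. The Ly6Clo libraries overlapped both macrophage groups. With 3 against 3 libraries, an exact permutation test, the one used for this ratio, cannot go below p = 0.1, and pairs of groups are given as values without a test. Macrophages minus monocytes gave a difference of 1.68 in log2 ratio, which did not pass (exact two-sided permutation test, 6 against 6 libraries, p = 0.106). Without Ly6Clo replicate 1 it was 2.21 (exact permutation p = 0.0390).

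**Figure D1:**
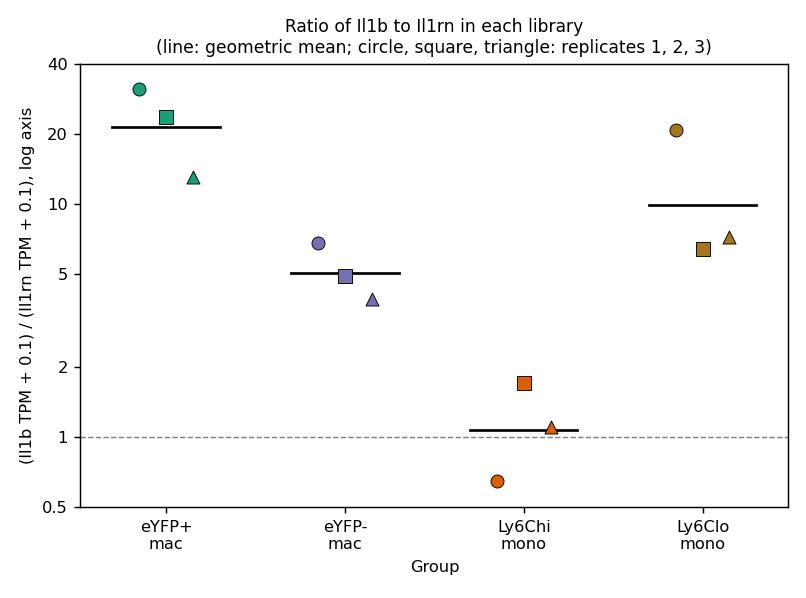
Ratio of Il1b to Il1rn TPM in each of the 12 libraries by group, on a log axis, with the geometric mean of each group as a line. The 3 Ly6Chi libraries lie between 0.649 and 1.71, below every other library.

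Il18 (ENSMUSG00000039217) was a macrophage transcript and, per length, the most abundant of the 10 in macrophages. It was at 990.5, 807.9 and 717.2 TPM in eYFP+ macrophages and at 748.0, 658.8 and 671.9 TPM in eYFP- macrophages. It was at 63.3, 55.6 and 65.3 TPM in Ly6Chi monocytes and at 37.4, 88.1 and 44.5 TPM in Ly6Clo monocytes. Macrophages were 12.1-fold higher than monocytes (log2 fold change 3.59 ± 0.28, DESeq2 adjusted p = 5.61e-37, edgeR 9.21e-07), with no overlap. Neither the macrophage groups (0.32 ± 0.39, 95% interval -0.45 to 1.08) nor the monocyte groups (0.10 ± 0.39, interval -0.67 to 0.86) differed by a called amount, and the macrophage difference was 0.092 without eYFP+ replicate 1. The high Ly6Clo value was that of replicate 2. Without both libraries that stood apart, Il18 was higher in Ly6Chi than in Ly6Clo monocytes by 0.62 on the log2 scale (DESeq2 adjusted p = 0.0387). The erythroid list of 8 genes also was higher in macrophages, at 8966 to 35146 TPM against 355 to 1405 TPM in monocytes, and its part in the Il18 result was not tested. It was higher in eYFP- than in eYFP+ libraries, where Il18 means were 693 ± 48.2 and 839 ± 139 TPM (SD, n = 3).

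**Figure D2:**
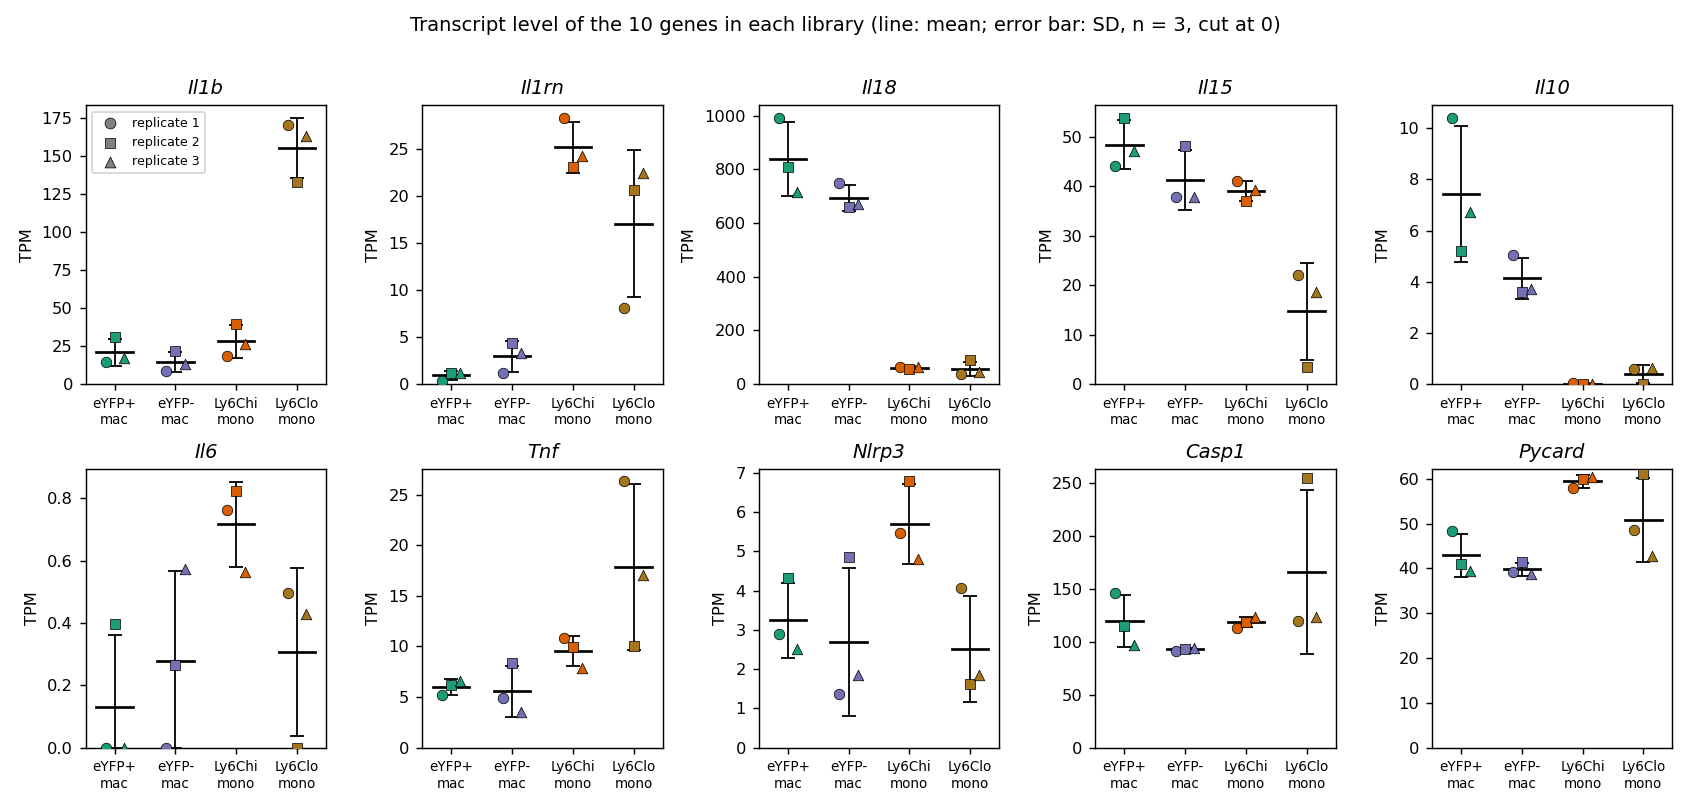
TPM of the 10 genes in each library, 1 panel per gene, each axis from 0; points are replicates, lines are means and error bars are the SD of 3 libraries. Il18 and Il10 sit high in both macrophage groups, Il1b in Ly6Clo monocytes and Il1rn in both monocyte groups, and the highest Casp1 value is that of Ly6Clo replicate 2.

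The genes of the inflammasome machinery were present in every group. Pycard (ENSMUSG00000030793), the adaptor, was at 57.9, 60.04 and 60.4 TPM in Ly6Chi and at 48.5, 61.1 and 42.8 TPM in Ly6Clo monocytes. It was at 48.4, 41.1 and 39.4 TPM in eYFP+ and at 39.3, 41.5 and 38.7 TPM in eYFP- macrophages. Macrophages were 1.42-fold lower (log2 fold change -0.51 ± 0.18, DESeq2 adjusted p = 0.0189, edgeR 0.0186), with overlap between libraries. DESeq2 lost the call without replicate 2 or 3 of the Ly6Chi, eYFP+ or eYFP- group (highest adjusted p = 0.102, without eYFP+ replicate 2). Of the pairs of groups, eYFP- macrophages against Ly6Chi monocytes was called (-0.70 ± 0.26, DESeq2 adjusted p = 0.0294, edgeR 0.0288), and was not by DESeq2 without any 1 library of this pair (0.0673 to 0.128). For eYFP+ against Ly6Chi it became called without eYFP+ replicate 1 (-0.72, 0.0288) or Ly6Clo replicate 2 (-0.59, 0.0137). Pycard shares exonic sequence with the antisense gene Gm45205, so some of its read pairs may have been dropped as ambiguous.

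Casp1 (ENSMUSG00000025888), the protease, was at 145.6, 114.8 and 97.03 TPM in eYFP+ macrophages and at 91.2, 92.8 and 94.4 TPM in eYFP- macrophages. It was at 113.3, 118.9 and 123.2 TPM in Ly6Chi and at 119.3, 254.8 and 122.9 TPM in Ly6Clo monocytes. In TPM the 3 eYFP+ libraries lay above the 3 eYFP- libraries, but their normalized counts overlapped (2698 in eYFP+ replicate 3, 2923 in eYFP- replicate 1) and the difference was not called (0.41 ± 0.38, 95% interval -0.33 to 1.16, DESeq2 adjusted p = 0.979) and was 0.15 without eYFP+ replicate 1. Macrophages minus monocytes was -0.51 ± 0.27 (DESeq2 adjusted p = 0.132), and without both libraries that stood apart it was -0.43 and past the threshold (0.00293), while without Ly6Clo replicate 2 alone it was -0.31. The high Ly6Clo value was that of replicate 2. Genes of the lowest GC decile, in which Casp1 falls (41.1% GC), were higher in that library by a median of 0.47 on the log2 scale, against 1.07 for Casp1. The difference between eYFP- macrophages and Ly6Clo monocytes (-0.97 ± 0.38, DESeq2 adjusted p = 0.0431) was not called by edgeR (0.0542), and without Ly6Clo replicate 2 it was -0.51 and not called by DESeq2 (0.167). That call was also lost without any 1 eYFP- or Ly6Chi library or eYFP+ replicate 2 (0.0623 to 0.137).

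Nlrp3 (ENSMUSG00000032691), the sensor, was the scarcest part of the machinery. It was at 5.48, 6.80 and 4.801 TPM in Ly6Chi monocytes, whose 3 libraries lay above the Ly6Clo ones at 4.07, 1.62 and 1.84 TPM. It was at 2.89, 4.33 and 2.52 TPM in eYFP+ and at 1.37, 4.86 and 1.84 TPM in eYFP- macrophages. Ly6Chi minus Ly6Clo was 1.21 ± 0.49 (95% interval 0.24 to 2.18) and was not called (DESeq2 adjusted p = 0.112), but was without Ly6Clo replicate 1 (1.68, DESeq2 adjusted p = 0.0163) or eYFP- replicate 2 (1.21, 0.0465). Ly6Chi monocytes also exceeded eYFP- macrophages, with a log2 difference of -1.26 ± 0.49 for eYFP- minus Ly6Chi that DESeq2 called (adjusted p = 0.0406) and edgeR did not (0.0752). It lost this call without any 1 Ly6Chi library, eYFP- replicate 1 or 3, or eYFP+ replicate 1 or 2 (0.0504 to 0.194). Macrophages minus monocytes was -0.47 ± 0.35 (DESeq2 adjusted p = 0.315).

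Tnf (ENSMUSG00000024401) was at 26.4, 10.03 and 17.1 TPM in Ly6Clo monocytes and at 10.8, 9.99 and 7.92 TPM in Ly6Chi monocytes. It was at 5.17, 6.22 and 6.64 TPM in eYFP+ macrophages and at 4.87, 8.40 and 3.51 TPM in eYFP- macrophages. Macrophages were 2.43-fold lower than monocytes (log2 fold change -1.28 ± 0.28, DESeq2 adjusted p = 3.51e-05, edgeR 0.00283). Both macrophage groups fell below Ly6Clo monocytes, with differences of -1.64 ± 0.40 for eYFP+ (DESeq2 adjusted p = 2.99e-04) and -1.79 ± 0.40 for eYFP- (6.89e-05), while neither was called against Ly6Chi monocytes (DESeq2 adjusted p = 0.164 and 0.0698). Without Ly6Clo replicate 2 both were (-0.82, 0.0339 and -0.97, 0.0105), as was eYFP- without its replicate 2 (-1.23, 0.0211) or Ly6Clo replicate 1 (-0.93, 0.0440). Between monocyte groups the difference was -0.87 ± 0.40 (DESeq2 adjusted p = 0.170), and without Ly6Clo replicate 2 it was -1.13 and past the threshold (0.0200), while without Ly6Clo replicate 1 it was -0.54 (0.421). Genes of the GC decile of Tnf (52.1% GC) were lower in Ly6Clo replicate 2 by a median of -0.50 on the log2 scale, against -1.07 for Tnf. The neutrophil list and the sum of the handling list, whose genes moved both ways, were higher in monocytes than in macrophages, and their part in the Tnf result was not tested.

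Il6 (ENSMUSG00000025746) was close to the limit of detection everywhere. Its counts were 17, 16 and 11 in Ly6Chi monocytes, 13, 0 and 10 in Ly6Clo monocytes, 0, 7 and 15 in eYFP- macrophages, and 0, 9 and 0 in eYFP+ macrophages. The highest of these was 0.823 TPM, and a count of 0 allows up to 3 counts, which is 0.0617 to 0.114 CPM (counts scaled by library total, counting error only). No comparison over all 12 libraries called Il6, and without eYFP+ replicate 2, the only library of its group with a count, macrophages minus monocytes was called (log2 fold change -3.49, DESeq2 adjusted p = 0.0416), as was eYFP+ against each monocyte group (0.0103 for Ly6Chi, 0.0492 for Ly6Clo).

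Il10 (ENSMUSG00000016529) was found mainly in macrophages, with 1012 counts over their 6 libraries and 36 counts over the 6 monocyte libraries. It was at 10.4, 5.21 and 6.72 TPM in eYFP+ macrophages (286, 136 and 216 counts) and at 5.06, 3.61 and 3.73 TPM in eYFP- macrophages (152, 110 and 112 counts). Ly6Chi monocytes had 1, 0 and 0 counts and Ly6Clo monocytes had 18, 0 and 17 counts. Per total counts, macrophages had 21.5 times the Il10 of monocytes (95% interval 15.4 to 30.8, counting error only). DESeq2 and edgeR called the difference (log2 fold change 6.05 ± 0.78, DESeq2 adjusted p = 1.65e-13, edgeR 1.58e-04), but the fitted size rests on the single count of the Ly6Chi group. Against Ly6Clo monocytes, the fitted differences were 4.13 ± 0.75 for eYFP+ (DESeq2 adjusted p = 4.80e-07, edgeR 0.00902) and 3.23 ± 0.75 for eYFP- macrophages (1.57e-04, edgeR 0.0275). In TPM the 3 eYFP+ libraries lay above the 3 eYFP- libraries, but their normalized counts overlapped (130 in eYFP+ replicate 2, 139 in eYFP- replicate 1), and the difference was not called (0.89 ± 0.71, 95% interval -0.49 to 2.28, DESeq2 adjusted p = 0.916) and was 0.47 without eYFP+ replicate 1. Between monocyte groups, 1 against 35 counts in all gave a ratio per total counts of 32.1 for Ly6Clo over Ly6Chi (95% interval 5.40 to 1305, counting error only), which DESeq2 called (adjusted p = 0.0122) and edgeR did not (0.0841). DESeq2 lost this call without Ly6Chi replicate 2 (adjusted p = 0.104) or replicate 3 (0.102). The list of 10 macrophage markers summed to 2948, 1287 and 1945 TPM in Ly6Clo replicates 1, 2 and 3 and to 318 to 356 TPM in Ly6Chi monocytes, with 9 of 10 called lower in Ly6Chi (4.97% of all tested genes). It was lowest in the Ly6Clo library with 0 Il10 counts, and its part in the Il10 difference was not tested.

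Il15 (ENSMUSG00000031712) was at 44.1, 53.8 and 47.2 TPM in eYFP+ macrophages, at 37.7, 48.2 and 37.8 TPM in eYFP- macrophages and at 41.0, 36.9 and 39.2 TPM in Ly6Chi monocytes. It was lower in Ly6Clo monocytes, at 22.0, 3.44 and 18.5 TPM. The 3 Ly6Clo libraries lay below the other 9. The eYFP+ libraries lay just above the Ly6Chi ones, a difference that was not called (0.22 ± 0.50, DESeq2 adjusted p = 0.832). DESeq2 called Ly6Chi over Ly6Clo (1.45 ± 0.50, adjusted p = 0.0451) and edgeR did not (0.123), and DESeq2 lost the call without any 1 of the Ly6Chi or macrophage libraries (adjusted p from 0.0526 to 0.159), while without Ly6Clo replicate 2 the difference was smaller, 0.99, and was called. Both macrophage groups exceeded the Ly6Clo group by DESeq2, eYFP+ by 1.67 ± 0.50 (adjusted p = 0.00468, edgeR 0.0297) and eYFP- by 1.40 ± 0.50 (0.0233, edgeR 0.0601). Without Ly6Clo replicate 2 these Il15 differences were 1.16 (4.75e-08) and 0.89 (5.14e-05), and without any 1 eYFP- library the latter was not called (0.0631 to 0.0755). The mean over macrophages was not called against that over monocytes (0.81 ± 0.35, DESeq2 adjusted p = 0.0589), but was without Ly6Clo replicate 1 (0.99, DESeq2 adjusted p = 0.0225), replicate 2 (0.53, 2.38e-04) or replicate 3 (0.92, 0.0425). In Ly6Clo replicate 2 Il15 was lower than in the other Ly6Clo libraries by a log2 value of -2.52, while the median gene of its GC decile (Il15 transcript 49.6% GC) was lower by -0.25.

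Between macrophages and monocytes, DESeq2 thus called 6 of the 10 genes, 2 higher in macrophages (Il18 and Il10) and 4 lower (Il1rn, Il1b, Tnf and Pycard), where 35.4% of all tested genes were called (20.3% higher and 15% lower). edgeR called 6 as well, of which 2 were higher, and 35.6% of all genes it tested. The TPM of the 6 macrophage and 6 monocyte libraries did not overlap for Il18, Il10 and Il1rn. The share of all genes without overlap was not counted. Between Ly6Chi and Ly6Clo monocytes, DESeq2 called 3 of the 10 (Il15 higher in Ly6Chi, Il1b and Il10 lower), against 8.62% of all tested genes (3.66% higher and 4.97% lower in Ly6Chi), and edgeR called Il1b alone (4.32% of all genes it tested). Between eYFP+ and eYFP- macrophages, DESeq2 and edgeR called 0 of the 10. DESeq2 called 2.04% of all tested genes there (0.153% higher and 1.88% lower in eYFP+) and edgeR 0.334%. Each had 1 of the 10 at an unadjusted p under 0.05 (Il1rn), and the share over all genes at that p was not counted. The 95% intervals of these 10 differences were wide, from -4.45 to 2.32 on the log2 scale for Il6 at the widest. For single pairs, DESeq2 called 3 genes for eYFP+ macrophages against Ly6Chi monocytes (24.5% of all tested genes), 6 for eYFP+ against Ly6Clo (28%), 6 for eYFP- against Ly6Chi (27.4%) and 7 for eYFP- against Ly6Clo (26.3%). The pairs share libraries and are not independent of one another.

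**Figure D3:**
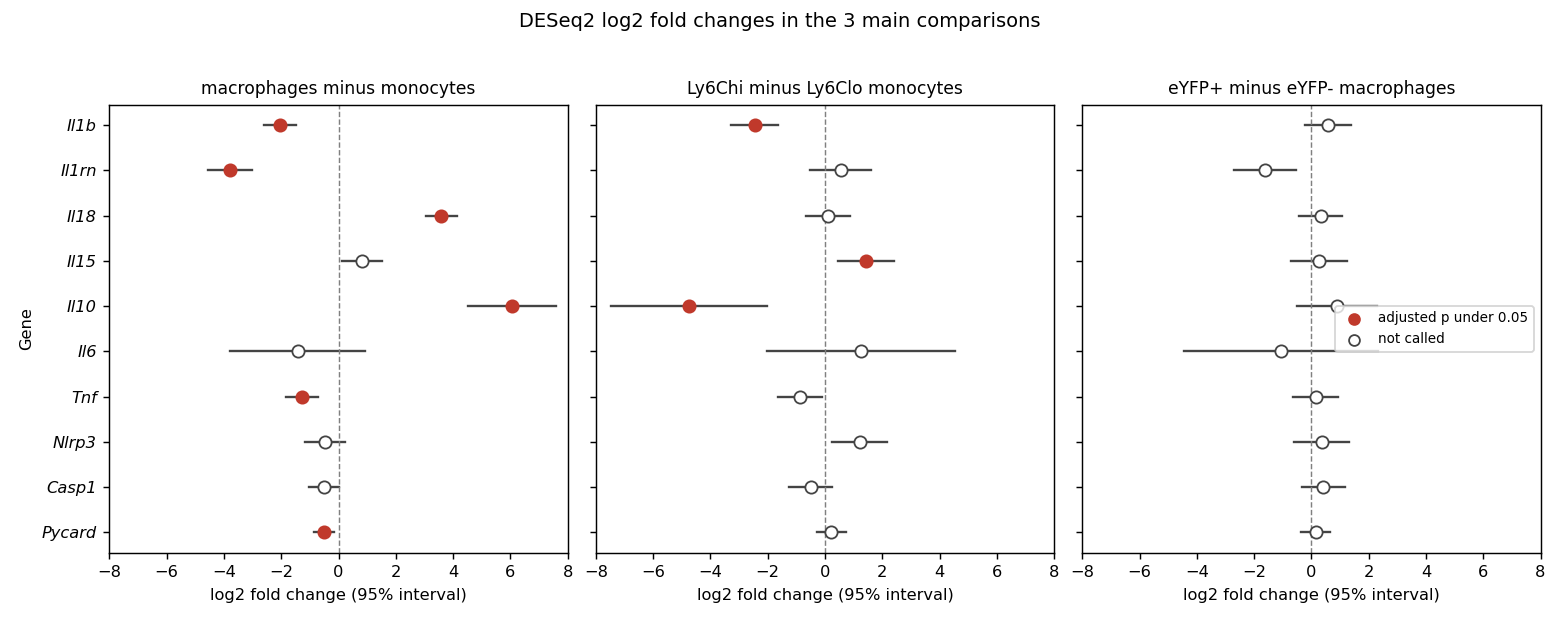
DESeq2 log2 fold change of each gene with its 95% interval in the 3 main comparisons; filled red points have an adjusted p under 0.05. Filled points number 6 for macrophages minus monocytes, 3 for Ly6Chi minus Ly6Clo and 0 for eYFP+ minus eYFP-.

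Partners of these genes, and the handling genes, were taken from 6 lists of 97 genes, of which 96 were matched. Of the IL-1 and IL-18 family and its signalling genes, 16 were tested and macrophages were higher in 4 and lower in 8, a called share of 75% beside 35.4% of all tested genes (20.3% higher and 15% lower). Il18bp, the decoy that binds IL-18, ran with Il18: it was at 274.5 to 478.8 TPM in macrophages and 7.48 to 10.7 TPM in monocytes (log2 fold change 5.22 ± 0.23, DESeq2 adjusted p = 9.56e-107, edgeR 5.43e-08). Il1a, the other agonist of the IL-1 receptor, was at 52.3 to 100.3 TPM in macrophages and at or below 1.21 TPM in monocytes (7.93 ± 0.61, DESeq2 adjusted p = 2.33e-36), opposite to Il1b. Il1r2, the IL-1 decoy receptor, was at 8.05 to 16.4 TPM in monocytes and at or below 1.09 TPM in macrophages (-6.29 ± 0.63, DESeq2 adjusted p = 8.98e-22), the direction of Il1rn. Irak3, an inhibitory kinase of the pathway, was lower in macrophages (-1.97 ± 0.22, DESeq2 adjusted p = 1.32e-18). The list had a median log2 fold change of -0.68, beside 0.08 over all tested genes.

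Of all 94 genes tested in the 6 lists, DESeq2 called 2 between the macrophage groups (2.13%, beside 2.04% of all tested genes), both of this list. Sigirr, an inhibitory receptor of the IL-1 family, was at 0.789 to 2.13 TPM in eYFP+ and 2.89 to 8.86 TPM in eYFP- macrophages (-2.07 ± 0.44, DESeq2 adjusted p = 4.20e-04, edgeR 0.0592). Il18rap, a chain of the IL-18 receptor, was at or below 0.283 TPM in eYFP+ and at 0.687 to 3.29 TPM in eYFP- macrophages (-4.11 ± 1.21, DESeq2 adjusted p = 0.0358, edgeR 0.416). edgeR called 0 of the list genes (0.334% of all genes it tested), with 9 at an unadjusted p under 0.05 (10 by DESeq2). The share over all genes at that unadjusted p was not counted. Sigirr and Il18rap were also detected in monocytes, Sigirr at 11.5 to 24.9 TPM. The neutrophil list was higher in eYFP- replicates 2 and 3 than in every eYFP+ library. The list of 7 eosinophil, basophil and mast cell markers summed to 261 to 1338 TPM in eYFP- and 12.2 to 20.4 TPM in eYFP+ macrophages, without overlap. The part of other cells in these differences was not tested. Within monocytes, Il1rl1, the receptor of IL-33, was lower in Ly6Chi (-4.45 ± 0.65, DESeq2 adjusted p = 1.31e-09, edgeR 0.00918), from levels at or below 1.78 TPM. It was at 1.53 to 4.42 TPM in macrophages, and 9 of the 10 macrophage markers were also called lower in Ly6Chi (4.97% of all tested genes). Their part in the Il1rl1 difference was not tested.

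Of 22 inflammasome and pyroptosis genes, 1 was higher and 11 were lower in macrophages (54.5% called, beside 35.4% of all tested genes). Ninj1, which ruptures the membrane of dying cells, was higher (1.91 ± 0.32, DESeq2 adjusted p = 1.72e-08), although eYFP+ libraries spread from 241.3 to 1029 TPM. Pstpip1, a partner of the pyrin sensor, was at 1.20 to 16.7 TPM in macrophages and 25.4 to 199.9 TPM in monocytes (-4.85 ± 0.41, DESeq2 adjusted p = 2.44e-30), and the sensor Nlrp1a was lower as well (-2.96 ± 0.28, 3.87e-25). The list median was -1.05. Naip2, Naip5 and Naip6, also called lower, are near-identical copies among which reads may be split. Between monocyte groups 5 genes of this list were higher in Ly6Chi and 0 lower (22.7% called, beside 8.62% of all tested genes), with Trim30a (1.24 ± 0.25, DESeq2 adjusted p = 4.01e-05) and Ninj1 (1.80 ± 0.45, 0.00171) the first by adjusted p, and edgeR called 3 of them. Between macrophage groups DESeq2 and edgeR called 0 (2.04% and 0.334% of all tested genes), with 4 and 3 at an unadjusted p under 0.05. The share over all genes at that unadjusted p was not counted.

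Of 13 tested TNF ligands, receptors and signalling genes, 2 were higher and 4 lower in macrophages (46.2% called, beside 35.4% of all tested genes). Tnfsf13b, which encodes the B cell factor BAFF, was lower (-5.44 ± 0.59, DESeq2 adjusted p = 4.58e-19), as was Birc3 (-1.14 ± 0.19, 1.32e-08), an inhibitor of apoptosis downstream of TNF receptors. Tnfsf12, which encodes TWEAK, was higher (1.16 ± 0.22, DESeq2 adjusted p = 8.83e-07), and Tradd, an adaptor of TNF receptor 1, was higher by DESeq2 (0.59 ± 0.24, adjusted p = 0.0456) but not by edgeR (0.0631). Within monocytes Ltb, the lymphotoxin β chain, was at 87.7 to 128.9 TPM in Ly6Clo against 5.35 to 6.52 TPM in Ly6Chi monocytes (-4.31 ± 0.33, DESeq2 adjusted p = 1.36e-36), while Tnfsf12 was higher in Ly6Chi (1.35 ± 0.32, 6.38e-04). The macrophage and dendritic cell lists were higher in Ly6Clo monocytes too, the latter with 5 of 8 genes called lower and 1 higher in Ly6Chi (4.97% and 3.66% of all tested genes). The part of both lists in the Ltb difference was not tested.

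Of 17 receptor and signalling genes of IL-6, IL-10 and IL-15, 4 were higher and 7 lower in macrophages (64.7% called, beside 35.4% of all tested genes). The IL-15 receptor chains Il15ra (0.63 ± 0.16, DESeq2 adjusted p = 4.54e-04) and Il2rb (5.96 ± 0.93, 1.46e-09) were higher in macrophages, while the third chain, Il2rg, was lower (-1.79 ± 0.42, 1.13e-04), with every macrophage library below every monocyte library. Il2rb, also a receptor chain of T and NK cells, was at 1.42 to 10.3 TPM in macrophages and at or below 1.37 TPM in monocytes. A list of 10 T and NK cell markers summed to 96.04 to 235 TPM in macrophages and 0.853 to 38.03 TPM in monocytes. Of these 10, 6 were called higher in macrophages and 0 lower (20.3% and 15% of all tested genes). The part of this list in the Il2rb result was not tested. Stat3, which transmits IL-6 and IL-10 signals (-2.11 ± 0.31, DESeq2 adjusted p = 1.76e-10), and Socs3, its feedback inhibitor (-2.86 ± 0.50, 1.41e-07), were lower. The common chain Il2rg was lower in Ly6Chi than in Ly6Clo monocytes by DESeq2 (-2.02 ± 0.59, adjusted p = 0.0117), opposite to Il15, and not by edgeR (0.0839). Its Ly6Clo libraries spread from 425.5 to 2249 TPM, and the part of the dendritic cell and macrophage lists, which moved the same way, was not tested. Of 14 NF-kappaB genes, 1 was higher and 5 lower in macrophages (42.9% called, beside the same 35.4%). Ikbkb, the catalytic kinase of the pathway (-1.64 ± 0.15, DESeq2 adjusted p = 9.43e-26), and Nfkbiz, an inducible co-regulator (-2.44 ± 0.31, 4.82e-14), were lower and Ikbkg, the regulatory subunit, was higher (0.60 ± 0.21, 0.0140). Between monocyte groups, Nfkb1 (-1.03 ± 0.27, DESeq2 adjusted p = 0.00414, edgeR 0.0339) and Nfkbiz (-1.62 ± 0.44, 0.00468, edgeR 0.0501) were lower in Ly6Chi, the direction of Il1b.

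The handling genes were split, with 4 higher and 5 lower in macrophages of 13 tested (69.2% called, beside 35.4% of all tested genes). Ier2 (-2.91 ± 0.26, DESeq2 adjusted p = 1.89e-28) and Atf3 (-2.70 ± 0.28, 2.33e-20) were lower, and Ier3 (1.26 ± 0.28, 3.17e-05) and Egr1 (1.35 ± 0.34, 4.13e-04) were higher. Within monocytes Dusp1 was lower in Ly6Chi (-2.20 ± 0.38, DESeq2 adjusted p = 4.32e-07). Over all 6 lists, DESeq2 called 56 of 95 tested genes between macrophages and monocytes (35.4% of all tested genes were called), 16 higher and 40 lower in macrophages (edgeR 53), with a median log2 fold change of -0.72. It called 14 of 94 between the monocyte groups (8.62% of all tested genes were called), 6 higher and 8 lower in Ly6Chi (edgeR 9), with a median of 0.13 beside 0.02 over all tested genes.

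**Figure D4:**
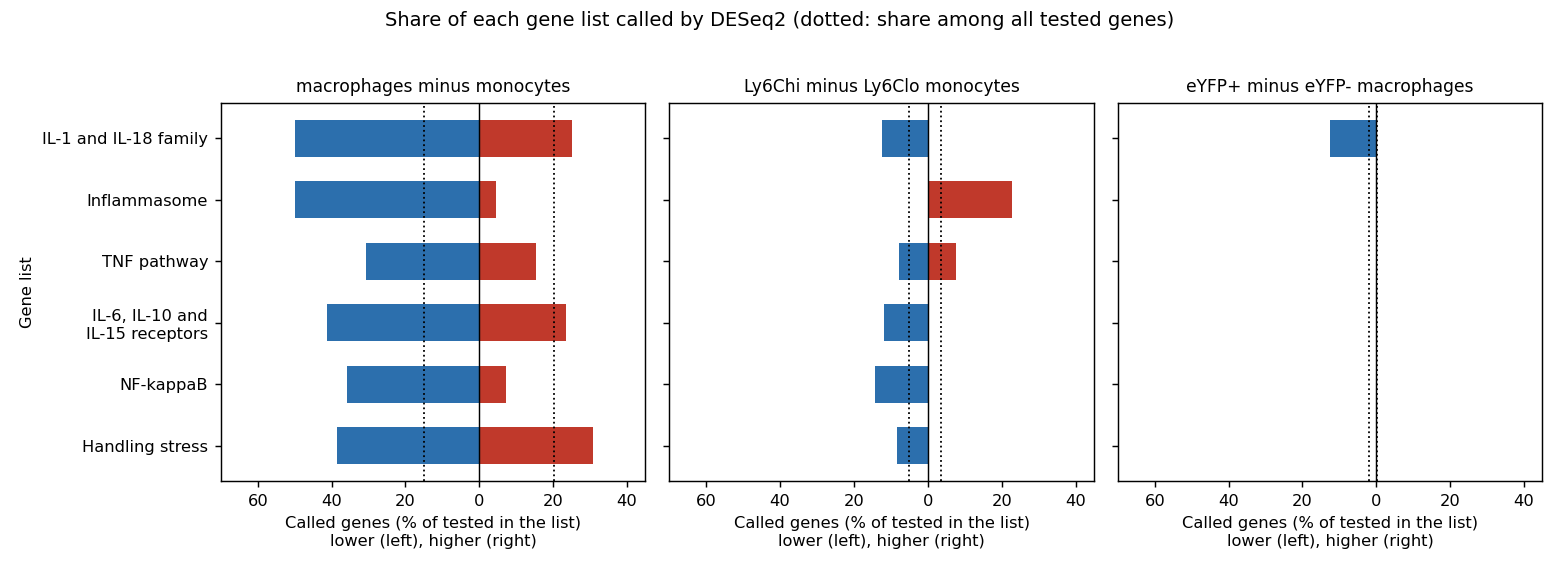
Share of the tested genes of each list that DESeq2 called lower (left, blue) or higher (right, red) in the first group of each comparison; dotted lines mark the share among all tested genes. For macrophages minus monocytes the left bars pass the dotted line at 15% in all 6 lists.

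The genes whose log2(normalized counts + 1) followed these patterns most closely over the 12 libraries, of 10976 candidates, were Coq10b for Il1b (Pearson r 0.963), Gpr141 for Il1rn (0.978), Prkar1b for Il18 (0.998), Rilpl1 for Il15 (0.988), Ccr1l1 for Il10 (0.988), Plxnd1 for Nlrp3 (0.925), Tlr6 for Casp1 (0.969) and BC147527 for Pycard (0.979). Il6 was too scarce to be ranked. The libraries share their groups, so these values describe a shared pattern over groups. Among the 10 genes themselves, Il1rn ran opposite to Il10 (-0.92) and Il18 (-0.90). Over the 10 libraries left without both that stood apart, these values were -0.91 and -0.90, while that of Casp1 with Il15 went from -0.78 to -0.39.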

How the data were processed

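Polyadenylated RNA of sorted cells was amplified as full-length cDNA and sequenced in pairs, without molecular identifiers. By the published methods, reads were trimmed, error-corrected, freed of rRNA and aligned with segemehl to GRCm39. The authors deposited counts, whole numbers of unambiguous read pairs per gene from featureCounts. The authors also deposited TPM values, counts divided by gene length and scaled to the same sum in each library. Variance-stabilised values were not used. Whether strand was used is not given in the sources used here. Overlapping genes and near-identical copies lose reads.

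Symbols came from GENCODE M21 and matched 91.4% of identifiers. The test was that of DESeq2 1.42.0 (R 4.3.3) on the counts, in 1 fit over 12 libraries with group as the factor, median-of-ratios scaling, Wald tests and Benjamini-Hochberg adjusted p under 0.05 over all tested genes (22385 for macrophages minus monocytes). Macrophages minus monocytes compares the means of their groups. The alternatives were edgeR 4.0.16 (quasi-likelihood), limma 3.58.1 on log2(TPM + 1) or log2(TPM + 0.1), other scaling and filters, a replicate block, fits on the compared libraries and leaving out each library. Leaving out both libraries with low GC-rich genes was chosen after seeing the data. Errors of fold changes are SE. Levels are TPM with the SD of 3 libraries. GC content is that of the longest transcript. Intervals of ratios of counts are exact binomial ones. The tests were tried on simulated data.

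All 10 members are named. From each list, the 2 higher and 2 lower called genes with the lowest adjusted p and a mean of at least 50 normalized counts are named per main comparison, and genes named beside these were chosen after their values were seen. The members and lists were chosen with earlier results of these data known. Total counts per library ran from 26390927 to 48618187. The gene most like Tnf in pattern is not reported here.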

Additional observations from a re-analysis of the deposited data

How the results depend on the processing

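For macrophages minus monocytes, the calls of Il18, Il10, Il1rn, Il1b and Tnf kept their direction and stayed past the threshold in all 23 alternatives tried, while that of Pycard was lost in 7 and Il15 became called in 6. The fit on the compared libraries was not run there. Between monocyte groups the Il1b call held in all 24 alternatives, the Il15 call was lost in 18 and the Il10 call in 7. The number of the 10 genes called there was 1 with edgeR, on the compared libraries and with each limma setting, 1 to 4 without single libraries, and 5 without both libraries that stood apart. The lists then gave 9 with edgeR, 9 on the compared libraries, 8, 5 and 6 with limma (TPM + 1, TPM + 0.1, no filter), 10 to 20 without single libraries and 23 without both. Between macrophage groups, 1 of the 10 (Il1rn) was called with the replicate block and 0 to 1 without single libraries. The lists gave 0 with edgeR, 4 with total-count scaling, 1 without independent filtering, 1, 0 and 0 with limma, 1 to 4 without single libraries and 4 without both. List calls for macrophages minus monocytes fell from 56 to 34 with unfiltered limma. For eYFP+ against Ly6Chi, the compared libraries gave 5 of the 10 (3 to 5 without single libraries). For eYFP- against Ly6Chi, 3 were called without independent filtering and 3 with limma on TPM + 0.1 (3 to 7 without single libraries). The difference in log2 Il1b to Il1rn ratio was 1.21 to 2.21 without single libraries and 1.06 with 1 TPM added in place of 0.1 (exact permutation p = 0.229).

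Some differences that were not called changed sign. For eYFP+ minus eYFP-, without single libraries, Il6 ran from -5.21 to 0.11, Tnf from -0.080 to 0.46 and Pycard from -0.025 to 0.26, and without both libraries that stood apart Pycard was -0.033. For Ly6Chi minus Ly6Clo, Il18 ran from -0.16 to 0.62 and Casp1 from -0.73 to 0.010, which was 0.0088 without both. The cause was not tested.

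Same-numbered macrophage libraries had correlations of 0.090, -0.0064 and 0.030 between their deviations from the group means. Such low values cannot show that these libraries were unpaired, because differences between single libraries also enter them. With the block, Il1rn between macrophage groups had an adjusted p of 0.0266 (DESeq2). Running numbers in the library labels follow the replicate numbers. What either stands for is not stated, so the pairing is not established.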
